A study of Mus musculus with 2 samples.

Results

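The genes described here are the replication-dependent histone genes of the mouse histone clusters, all protein-coding genes whose GENCODE symbol starts with Hist1h, Hist2h, Hist3h or Hist4h. The annotation named 67 such genes and 64 of them had a row in the gene tables, out of 21461 protein-coding nuclear genes and 69691 features. The other 3, Hist1h2bh, Hist1h2bm and Hist2h2bb, were not analysed here. The 64 members encode H1 (6 genes), H2A (18), H2B (15), H3 (12) and H4 (13). They lie in the Hist1 cluster on chromosome 13 (52 members), Hist2 on chromosome 3 (9), Hist3 on chromosome 11 (2) and Hist4 on chromosome 6 (1). Levels came from total RNA-seq of megakaryocyte-erythroid progenitors (MEP), bone marrow progenitors of red cells and megakaryocytes, which were primary cells of male C57BL/6J mice, 5 to 6 weeks old. There were 2 libraries, replicates 1 and 2, each from 100 cells and from RNA above 200 bases with spike-in RNAs added. The labels give them separate biosamples but a single donor record, name no treatment or mutation, and form 1 group, so the spread between the libraries may be technical and no test between conditions was possible. Replicate 1 had 62570 expected counts on members, of 30016974, and replicate 2 had 92968, of 51510347. The authors' TPM, an abundance relative to all transcripts after correction for gene length, is the level used below, and differences are log2(TPM + 1) of replicate 1 minus replicate 2.

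Replication-dependent histone genes supply the histones that package newly copied DNA, and their mRNAs accumulate in S phase. H2A, H2B, H3 and H4 form the nucleosome core, and H1 binds the linker DNA between nucleosomes. These genes are typically without introns, and most of their mRNAs end in a stem-loop bound by the protein SLBP in place of a poly(A) tail, so a total RNA library can capture mRNAs that a poly(A) selection would miss.

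The stem-loop was searched for as a stem of 6 bases beginning with GG, a loop of 4 bases that begins with T and does not end in G, and the exact inverted repeat of the stem, within 150 bases after the stop codon of GENCODE M21 transcripts (GRCm38). It was found in 44 of the 64 members, in 8 forms, 22 to 59 bases after the stop codon. Another 12 members had no annotated bases after the stop codon, and Hist1h2af and Hist1h2ah had only 1 and 2, so their ends could not be searched. A further 6 had 30 or more annotated bases there and no match, among them Hist1h2bc with 742 bases and Hist2h2be with 2192. The most common form stood in 24 members of H1, H2A, H2B and H3, and a second form in 7 members, all of them H4. The highest member with each of the 3 most common forms, and Hist2h4 with a rarer form, are shown to let the forms be compared, with 5 bases on either side and the 16 bases of the stem-loop in capitals.
Hist1h1e: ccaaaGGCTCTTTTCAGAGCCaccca
Hist1h4d: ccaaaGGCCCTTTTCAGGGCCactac
Hist1h2bk: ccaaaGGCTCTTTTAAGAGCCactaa
Hist2h4: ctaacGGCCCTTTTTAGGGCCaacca
All 12 H4 members with a match had a form other than the common one. Members with the form of Hist1h4d ranged from a mean of 13.8 TPM (Hist4h4) to 878 TPM (Hist1h4d).

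Promoters differed by class as well. Of the members, 59 had a RefSeq promoter (GRCm38.p6, 250 bases before to 50 after the start), and 5 motifs were searched on both strands. TATAAA, the letters of the TATA box, was in 35 of 59 member promoters (59.3%) against 15.7% of 27025 genes. Its matches, on either strand, lay anywhere from -250 to 41 from the start. The median position was -30.5 in H1 and -32 in H2A, but -94 in H2B, -89.5 in H3 and -79.5 in H4. The share is therefore not a count of TATA boxes at a set place. CCAAT, the CCAAT box, was in 50 (84.7%) against 41.1%, with a match in every H1, H2A, H2B and H3 promoter but in 3 of 12 for H4. GGTCCG, part of the H4 element bound by HINFP, was in 11 of 12 H4 promoters, the exception being Hist1h4a, and in 20.3% of member promoters against 9.44% of all genes; its median position was -46 from the start in H4. AAACACA, the H1 box, was in 5 of 6 H1 promoters, the exception being Hist1h1a, at -122 to -112, and in 13.6% of member promoters against 8.22% of all genes. ATTTGCAT, the octamer bound by POU2F1, was in 7 H2A and 5 H2B promoters, 20.3% of members against 1.97% of all genes. Different motifs overlapped at 1 place, and the windows of all 10 divergent H2B and H2A pairs with both promoters overlapped each other, so 1 match can count for both genes of a pair. A match is a description of these letters and not of binding. The 170 bases before the RefSeq start are shown, 5′ to 3′ on the gene's own strand, for the highest H4 gene, the highest H1 gene, an H2B gene that shares its upstream region with an H2A gene, and the highest Hist1 gene of H3, with matches of the 5 motifs on either strand in capitals.
Hist1h4d (chr13:23581398-23581567, plus strand): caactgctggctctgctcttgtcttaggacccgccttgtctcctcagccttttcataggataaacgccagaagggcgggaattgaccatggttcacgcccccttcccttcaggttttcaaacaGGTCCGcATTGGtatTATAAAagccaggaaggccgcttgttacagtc
Hist1h1e (chr13:23622559-23622728, minus strand): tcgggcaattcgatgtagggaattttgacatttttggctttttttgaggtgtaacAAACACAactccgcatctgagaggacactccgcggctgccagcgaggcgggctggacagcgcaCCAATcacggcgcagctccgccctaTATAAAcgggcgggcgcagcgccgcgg
Hist1h2bg (chr13:23571230-23571399, plus strand): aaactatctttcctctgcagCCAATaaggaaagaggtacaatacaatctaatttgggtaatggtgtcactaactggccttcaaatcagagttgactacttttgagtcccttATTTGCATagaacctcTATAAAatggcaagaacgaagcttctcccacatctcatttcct
Hist1h3d (chr13:23575593-23575762, plus strand): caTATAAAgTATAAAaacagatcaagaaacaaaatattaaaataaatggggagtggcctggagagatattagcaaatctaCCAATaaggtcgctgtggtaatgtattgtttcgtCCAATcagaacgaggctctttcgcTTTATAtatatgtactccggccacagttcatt

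MEP expressed most of the members, and at high levels. At 1 TPM or more in both libraries stood 55 of 64 members (85.9%), against 44.2% of protein-coding genes, and at 10 TPM or more 44 of 64 (68.8%), against 24.7%. The median member was at 41.9 TPM in replicate 1, against 47.2 TPM in replicate 2, and the median protein-coding gene at 0.38 and 0.36 TPM. Together the members summed to 7144 TPM in replicate 1, against 6139 TPM in replicate 2, or 1.78% and 1.35% of protein-coding TPM from 0.298% of the genes. Among the 500 highest protein-coding genes were 22 members in replicate 1 and 19 in replicate 2. Members are short, with a median counted length of 483.5 bases against 1955 for all protein-coding genes. Their share was smaller in reads, at 0.463% of protein-coding counts in replicate 1 and 0.360% in replicate 2. In these bulk libraries more cells in S phase and more histone mRNA per cell cannot be told apart.

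**Figure D1:**
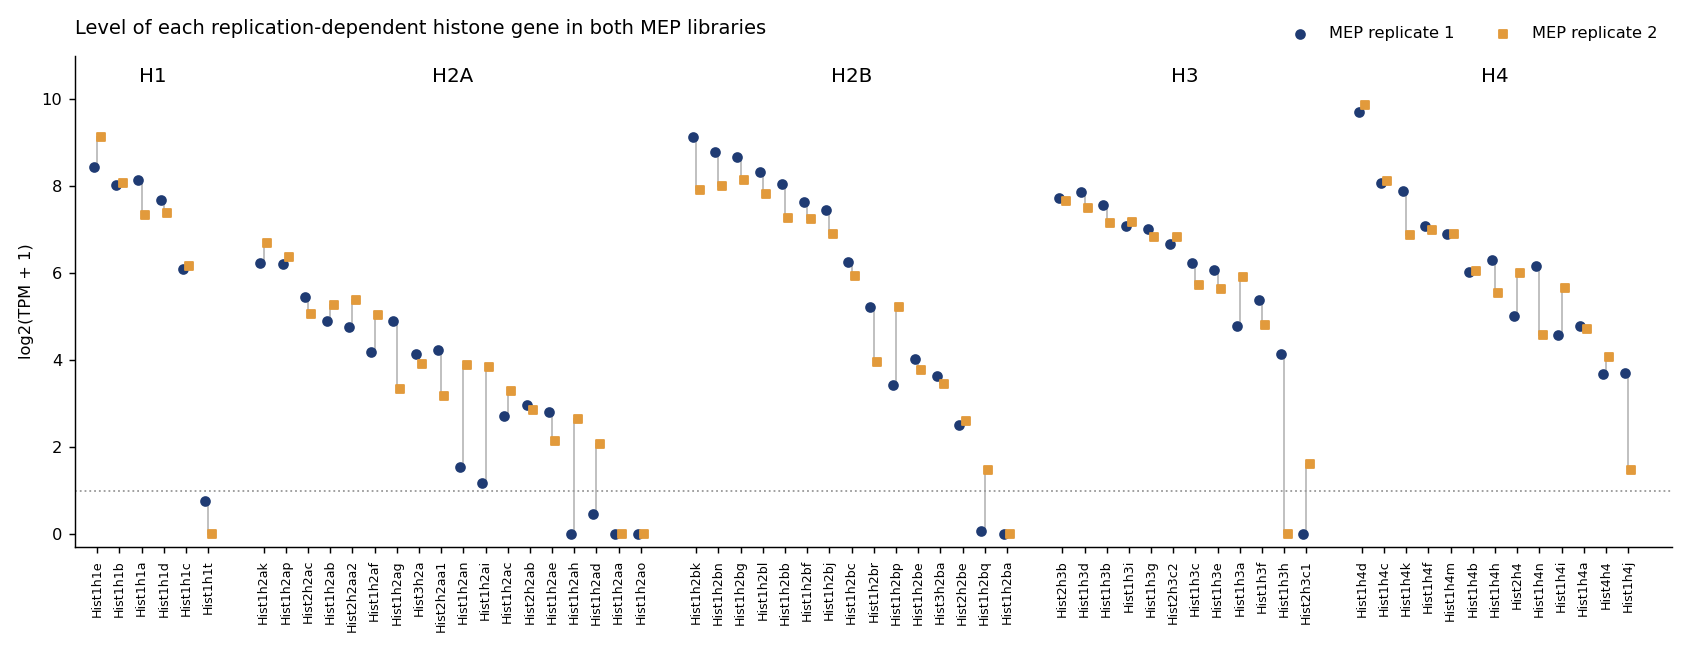
Level of each of the 64 members in MEP replicate 1 (circles) and MEP replicate 2 (squares) as log2(TPM + 1), by histone class and, within a class, by falling mean TPM; the dotted line marks 1 TPM. Hist1h4d is the highest point in both libraries, H2A genes lie lower than the leading genes of every other class, and long grey lines mark members whose libraries disagree.

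H4, which pairs with H3 at the centre of the nucleosome, held the highest single gene. Hist1h4d (ENSMUSG00000061482.6, GRCm38 chromosome 13, 23581598 to 23582735, plus strand) was at 827 TPM in replicate 1, against 929 TPM in replicate 2, a mean of 878 ± 72.0 TPM (SD, n = 2), and ranked 90 and 87 among protein-coding genes. It alone made up 43.4% of H4 TPM in replicate 1 and 50.01% in replicate 2. Hist1h4c followed at 269 and 277 TPM, Hist1h4k at 236 and 116 TPM, and Hist1h4f at 136 and 127 TPM in replicates 1 and 2. The libraries thus placed Hist1h4d and Hist1h4c alike, whereas Hist1h4k was higher in replicate 1. All 13 H4 genes reached 1 TPM in both libraries and 12 reached 10 TPM in both. Hist4h4, alone in its cluster on chromosome 6, was near the bottom at 11.9 TPM in replicate 1, against 15.7 TPM in replicate 2.

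H2B, the partner of H2A, was spread over several strong genes. Hist1h2bk led replicate 1 at 560 TPM and was at 239 TPM in replicate 2. Hist1h2bn was at 437 and 255 TPM, Hist1h2bg at 405 and 280 TPM, and Hist1h2bl at 319 and 226 TPM in replicates 1 and 2. All of these leading genes were higher in replicate 1, and in replicate 2 Hist1h2bg had the highest value of the class. In the order named, 5.67%, 47.9%, 17.4% and 37.9% of their 100-base coding windows were found in no other gene. Their order therefore depends on how shared reads were assigned. Of the 15 H2B members, 13 reached 1 TPM in both libraries. Hist3h2ba, the H2B gene of the Hist3 cluster, was at 11.5 and 9.92 TPM in replicates 1 and 2. Hist1h2ba, the testis H2B gene, had 0 counts in both libraries, where a floor of 3 counts would be 0.550 TPM in replicate 1, against 0.354 TPM in replicate 2. Hist1h2bq was at 0.05 TPM in replicate 1, against 1.77 TPM in replicate 2, and shares its coding sequence with Hist1h2br at 36.2 and 14.5 TPM.

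H3, whose tail carries many of the known chromatin marks, was shared among several genes of like level. Hist2h3b, of the Hist2 cluster, was at 212 and 202 TPM, Hist1h3d at 231 and 181 TPM, Hist1h3b at 189 and 140 TPM, and Hist1h3i at 135 and 143 TPM in replicates 1 and 2. The order of Hist2h3b and Hist1h3d was reversed between the libraries, so their levels do not differ beyond the spread. Of 12 members, 10 reached 10 TPM in both libraries. The remaining pair were each at 0 counts in 1 library. Hist1h3h was at 16.7 TPM from 100.8 counts in replicate 1 and at 0 counts in replicate 2, with the authors' credibility intervals at 9.68 to 23.3 TPM in replicate 1 and reaching up to 1.26 TPM in replicate 2. Hist2h3c1 was at 0 counts in replicate 1 and at 2.07 TPM from 132 counts in replicate 2, but its intervals reached up to 1.01 and 2.06 TPM and overlapped. Few or none of the 100-base coding windows of these genes are unique (8.01% for Hist1h3h and 0% for Hist2h3c1), so the assignment of their reads is uncertain and no fold is given.

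H1 genes, the linker histones, were few, and all but the testis gene were strong. Hist1h1e was at 344 TPM in replicate 1, against 560 TPM in replicate 2. Hist1h1b was at 261 and 268 TPM, Hist1h1a at 281 and 161 TPM, Hist1h1d at 203 and 166 TPM, and Hist1h1c at 67.3 and 70.7 TPM in replicates 1 and 2. Hist1h1e led both libraries, and Hist1h1a and Hist1h1b changed places between them. Hist1h1t, the testis linker histone, was at 0.69 TPM from 9 counts in replicate 1 and at 0 counts in replicate 2. Apart from it, all H1 members passed 10 TPM in both libraries.

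H2A was the lowest class although it has the most genes. Hist1h2ak was highest at 74.2 TPM in replicate 1, against 102 TPM in replicate 2, followed by Hist1h2ap at 73.1 and 82.2 TPM. Hist2h2ac was at 42.9 and 32.2 TPM, and Hist1h2ab at 29.0 and 37.8 TPM. Even these leading genes lay under the first 7 H2B genes in both libraries. Of 18 members, 14 reached 1 TPM and 7 reached 10 TPM in both libraries. Hist3h2a, of the Hist3 cluster, was at 16.5 and 14.0 TPM in replicates 1 and 2. Hist1h2aa, the testis H2A gene, and Hist1h2ao had 0 counts in both libraries, and Hist1h2ah had 0 counts in replicate 1, against 5.31 TPM in replicate 2. The zero of Hist1h2ao is not a measured absence, since its coding sequence is the same as that of Hist1h2ap, and the authors' credibility interval for it reached 14.6 TPM in replicate 1.

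Summed by class, H2B held 2512 TPM in replicate 1, against 1562 TPM in replicate 2, and H4 1905 and 1858 TPM. H3 held 1223 and 1080 TPM, H1 1157 and 1226 TPM, and H2A 348 and 413 TPM. The level of H4 lay between those of H2B in the libraries, and H1 and H3 overlapped, so neither pair can be ordered beyond the spread, whereas H2A lay under every other class in both libraries. The nucleosome core holds equal numbers of H2A and H2B proteins. Among cluster genes the mRNA sum of H2B was 7.23 times that of H2A in replicate 1 and 3.79 times in replicate 2. In counts, without length correction, the ratios were 6.00 and 3.51. H4 over H3 was nearer to parity, at 1.56 in replicate 1 and 1.72 in replicate 2, and at 1.04 and 1.23 in counts. These ratios leave out the replication-independent genes, so they do not compare all mRNA of a class. In replicates 1 and 2 those genes summed to 828 and 944 TPM for H2A and to 662 and 925 TPM for H3. H2A was also the lowest class in shares of counts, at 5.48% of member counts on average, and in expected counts per coding base, at 5.84%.

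**Figure D2:**
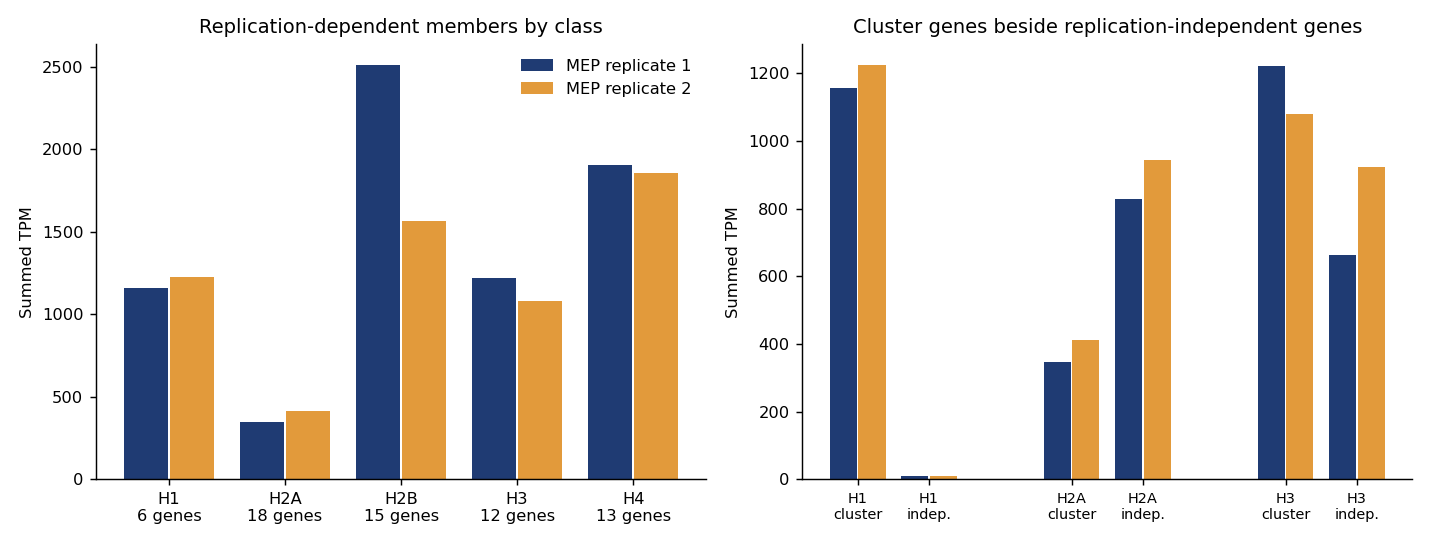
Summed TPM in MEP replicate 1 (dark bars) and MEP replicate 2 (light bars). The left panel gives the 5 classes of cluster genes, with H2A lowest at 348 and 413 TPM, and the right panel sets H1, H2A and H3 cluster genes beside replication-independent genes of the same class (indep.), which exceed the cluster genes for H2A alone.

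Replication-independent histone genes, which are not among the members, filled the H2A class differently from H1 and H3. The 18 H2A cluster genes summed to 348 TPM in replicate 1, against 413 TPM in replicate 2, and the 6 replication-independent H2A genes to 828 and 944 TPM, a ratio of 0.420 and 0.437. H2afz, the H2A.Z variant of promoters, alone was at 638 and 713 TPM. For H3, cluster genes summed to 1223 and 1080 TPM and the replication-independent genes, H3f3a and H3f3b for H3.3 and Cenpa for the centromeric variant, to 662 and 925 TPM, a ratio of 1.85 and 1.17. For H1, cluster genes summed to 1157 and 1226 TPM and H1f0 with H1fx to 10.02 and 10.8 TPM. As quantified, more of the H2A mRNA in both libraries came from the replication-independent genes than from the clusters, and more of the H1 and H3 mRNA from the clusters.

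Coding sequence shared among members limits how reads could be assigned within a class. The counted length equalled the coding sequence in 11 of 64 members, and untranslated bases of members were not compared. Over 50-base windows of the coding sequence, the median share found in no other gene was 12.1% in H2A, 17.2% in H2B, 15.3% in H3 and 29.7% in H4, against 89.1% in H1. The median window of a typical H2A gene occurred in 10.5 genes, against 7 for H2B, 6 for H3 and 4 for H4. Full coding sequences were identical in Hist1h2ao and Hist1h2ap, in Hist1h2bq and Hist1h2br, in Hist1h4m and Hist1h4n, and in Hist2h2aa1 and Hist2h2aa2. Those pairs summed to 73.1, 36.2, 190.2 and 43.7 TPM in replicate 1 and to 82.2, 16.3, 141 and 48.9 TPM in replicate 2, and the split within each pair is uncertain. The sharing is greatest in H2A, the class with the lowest sum, and its part in that sum was not tested. Members having at least 50% of their 100-base windows to themselves included 4 of 18 H2A genes, summing to 124 TPM in replicate 1, against 141 TPM in replicate 2. For H3 they were 3 of 12, at 167 and 160 TPM, and for H2B 5 of 15, at 297 and 180 TPM. These sums depend on how many and which genes pass, so their order is no ranking of the classes. Of the members that pass, Hist1h4d had all of its 100-base windows to itself, and Hist1h2bk, with 5.67%, was not among them.

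By cluster, Hist1 held 93.2% of member TPM in replicate 1 and 91.7% in replicate 2, Hist2 6.21% and 7.69%, Hist3 0.392% and 0.389%, and Hist4 0.166% and 0.256%. Within Hist1, gaps over 100 kb separate 4 blocks. The largest, with 28 members over 233 kb, held 4071 TPM in replicate 1, against 3790 TPM in replicate 2, and includes Hist1h4d and Hist1h1e. A block of 17 members held 1805 and 1415 TPM. The block of 5 members that includes Hist1h2bk held 785 and 422 TPM, a ratio of 1.86 and the largest of the 3 expressed blocks. The fourth block consists of the testis pair Hist1h2ba and Hist1h2aa, with 0 counts throughout. Neighbouring members differed widely in level within each of the other blocks, as the map of levels shows.

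**Figure D3:**
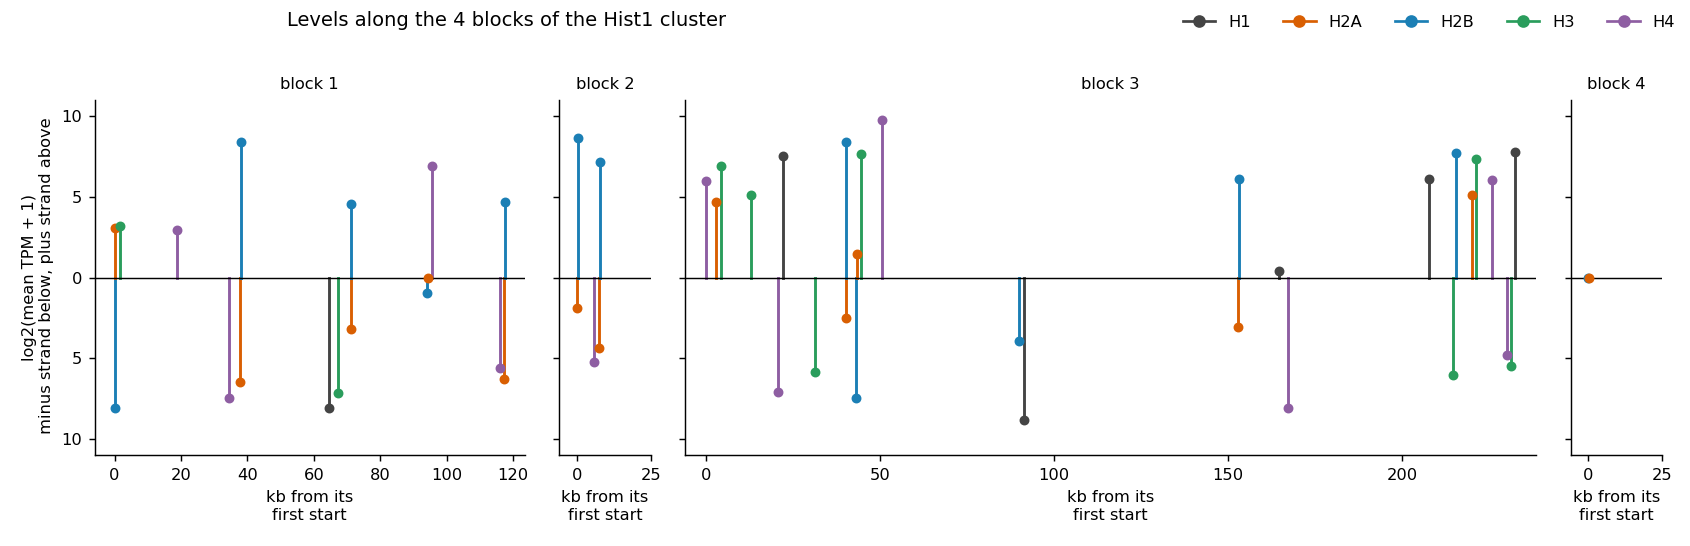
Mean level of the 52 Hist1 members along the 4 blocks of the cluster, as log2(mean TPM + 1) against distance in kb from the first start in each block; genes on the plus strand point up, genes on the minus strand point down, and colours give the class. Many blue H2B lines stand opposite a shorter orange H2A line at the same place, and the testis pair of block 4 is at 0.

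In the clusters H2B and H2A genes often stand head to head and share an upstream region. There were 12 such divergent pairs, all of H2B with H2A, with starts 176 to 306 bases apart (median 259.5). As quantified, the H2B gene was higher in both libraries in 8 of them. A ninth, Hist1h2bq with Hist1h2ao, could not be ordered: in replicate 1 it rested on 2.06 counts against 0, and the authors' posterior mean TPM there was 0.14 for Hist1h2bq and 6.1 for Hist1h2ao. Hist1h2bg was at 405 and 280 TPM in replicates 1 and 2, and its partner Hist1h2ae, whose start lies 176 bases away, at 5.98 and 3.43 TPM, a ratio of 67.8 and 81.7. Of their 100-base coding windows, 17.4% and 37.8% were found in no other gene, so the ratio depends on how shared reads were assigned. Hist1h2bl was at 319 and 226 TPM and its partner Hist1h2ai at 1.26 and 13.4 TPM. The direction was the opposite in Hist2h2be, at 4.73 and 5.11 TPM against 42.9 and 32.2 TPM of Hist2h2ac, and in Hist1h2br, at 36.2 and 14.5 TPM against 73.1 and 82.2 TPM of Hist1h2ap. The remaining pair is the testis pair with 0 counts. Hist1h2bn with Hist1h2ak, the highest H2A gene, had smaller ratios of 5.90 and 2.50. Over all pairs H2B summed to 2220 TPM in replicate 1, against 1387 TPM in replicate 2, and H2A to 234 and 274 TPM. The Hist1h2bg upstream run printed above, which holds an octamer, a TATA box and a CCAAT box, lies between 2 genes that were quantified at very different levels.

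Measured by SD, the difference between the libraries spread more widely over members than over protein-coding genes at 1 TPM or more on average. At 50 TPM or more the SD was not wider, while 2-fold differences towards replicate 1 stayed more frequent among members. Among members with a mean of at least 1 TPM, 8 of 59 (13.6%) were at least 2-fold higher in replicate 1 on the log2(TPM + 1) scale, against 2.46% of 9982 protein-coding genes, and 8 of 59 were at least 2-fold higher in replicate 2, against 5.15%. On CPM with TMM factors the split was 12 members towards replicate 1 and 4 towards replicate 2, against 2.35% and 2.62% of protein-coding genes. The SD of the log2 difference was 1.11 over members and 0.58 over protein-coding genes. At a mean of 50 TPM or more it was 0.44 over 30 members and 0.54 over 1332 protein-coding genes, and at 100 TPM or more 0.45 over 22 and 0.57 over 556. At 50 TPM or more, 2 members were at least 2-fold higher in replicate 1 and 0 in replicate 2, against 9 and 15 protein-coding genes. At 100 TPM or more the shares were 9.09% and 0% of members, against 0.899% and 0.36%. The authors' credibility intervals failed to overlap in 38 of 59 members (64.4%), which is near the 60.3% of protein-coding genes. The 5 members with the largest difference towards replicate 1 were Hist1h3h, Hist1h4j, Hist1h4n, Hist1h2ag and Hist1h2br. Hist1h4j was at 12.1 TPM in replicate 1, against 1.8 TPM in replicate 2, Hist1h4n at 70.9 and 22.9 TPM, and Hist1h2ag at 29.0 and 9.08 TPM. Towards replicate 2 they were Hist1h2ai, Hist1h2ah, Hist1h2an, Hist1h2bp and Hist2h3c1. Hist1h2an was at 1.92 TPM in replicate 1, against 13.8 TPM in replicate 2, and Hist1h2bp at 9.81 and 36.2 TPM. None of these 10 genes had 50% or more of its 100-base coding windows to itself.

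Members with most of their 100-base coding windows in common with other genes carried most of these differences. A difference of at least 2-fold, seen in 7.61% of protein-coding genes, was seen in 14 of 38 members with under 50% unique 100-base windows, and in 2 of 21 with 50% or more, namely Hist1h3a at 26.5 and 59.1 TPM and Hist1h4i at 22.7 and 49.9 TPM in replicates 1 and 2. The SD of the difference was 1.32 over the 38 members and 0.56 over the 21. Over protein-coding genes at a mean of 1 TPM or more it was 0.58. The 38 were also lower, with a median mean of 40.5 TPM against 63.2 TPM. At a mean of 10 TPM or more, 7 of 29 and 2 of 19 differed at least 2-fold, against 3.23% of protein-coding genes at that level. The SDs there were 0.72 over the 29 and 0.59 over the 19, a smaller gap, against 0.47 over protein-coding genes. The part of shared sequence in these differences was not tested.

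**Figure D4:**
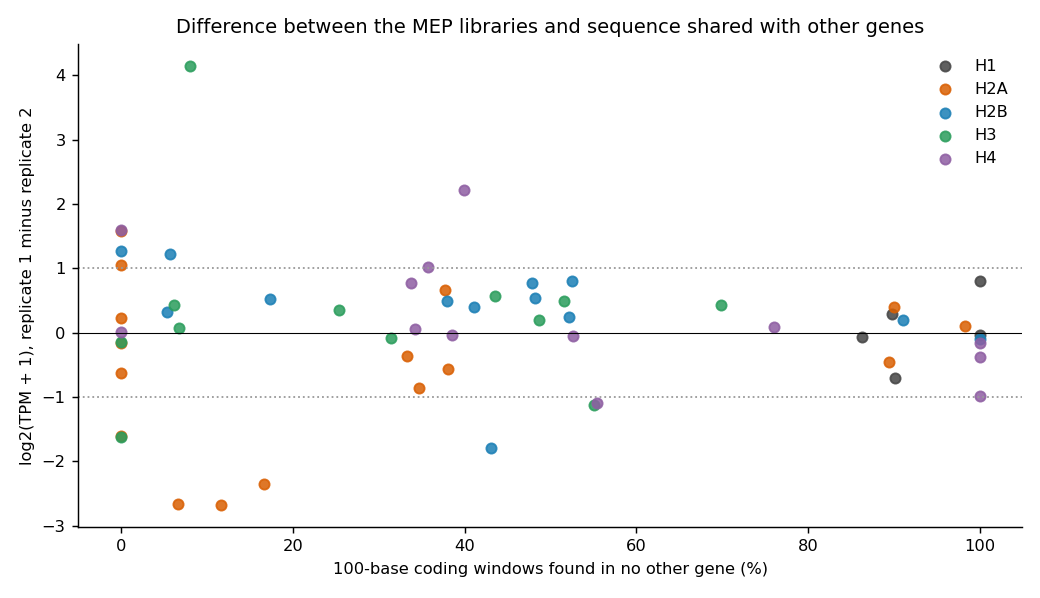
Difference between the MEP libraries, log2(TPM + 1) of replicate 1 minus replicate 2, against the percentage of a member's 100-base coding windows found in no other gene, for the 59 members with a mean of at least 1 TPM, coloured by class. Dotted lines mark a 2-fold difference, which 14 of 38 members under 50% and 2 of 21 at 50% or more pass; values spread widely on the left and narrowly on the right.

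Beneath this scatter the classes did not shift alike. The median difference over the 59 members was 0.11, with 34 higher in replicate 1 and 25 in replicate 2, and over protein-coding genes it was -0.18, with 3254 and 6715. On CPM with TMM factors the protein-coding median was -0.01. For H2B, 11 of 15 members were higher in replicate 1, and the summed TPM was 1.61 times that of replicate 2, a log2 ratio of 0.69. That ratio was between 0.67 and 0.95 under all scalings and filters run. The H2A sum was lower in replicate 1, with a log2 ratio of -0.25, but became 0.18 with TMM or DESeq2 factors on counts, so its direction depends on the scaling, and likewise the H1 sum went between -0.10 and 0.13. The H3 sum was also higher in replicate 1, with a log2 ratio between 0.16 and 0.43 under the same settings, and 8 of 12 members were higher there. The H4 sum differed least on the TPM scale, at 0.04, and lay between 0.02 and 0.22 under those settings. At a mean of 100 TPM or more, 2 of 22 members were 2-fold higher in replicate 1, Hist1h2bk and Hist1h4k, against 0.899% of protein-coding genes at that level, and none in replicate 2, against 0.36%.

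Most genes known to control histone mRNA were expressed in both libraries. Of the transcription list, all 10 genes reached 1 TPM in both libraries, and the median was 17.6 TPM in replicate 1, against 22.5 TPM in replicate 2. Npat, the cyclin E and CDK2 target of histone locus bodies, was at 14.3 and 17.7 TPM, and Hinfp, which acts on H4 genes, at 5.52 and 4.27 TPM. Of the pre-mRNA processing list, 19 of 21 measured genes reached 1 TPM in both libraries. Slbp was at 95.7 and 130 TPM in replicates 1 and 2. Of the subunits specific to the U7 particle, Lsm10 was at 12.8 and 15 TPM and Lsm11 at 1.84 and 1.71 TPM. Zfp473, a zinc finger protein of the U7 particle, was at 0.09 TPM from 7 counts in replicate 1, against 0.93 TPM from 150 counts in replicate 2. Rnu7, the U7 RNA itself, was at 0 in both libraries, which were made from RNA longer than it. All 15 measured genes of the decay list passed 1 TPM in both, and the medians were 27.6 and 32.03 TPM. Eri1, the exonuclease that trims the stem-loop end, was at 18.3 and 19.7 TPM. All 16 chaperone and assembly genes passed 10 TPM in both, and the medians were 61.1 and 59.1 TPM. Nasp, a histone chaperone, was at 80.6 and 98.7 TPM. Of these 4 lists only Lsm5, at 27.6 TPM in replicate 1, against 72.7 TPM in replicate 2, differed at least 2-fold on the log2(TPM + 1) scale, a scale that holds back genes as low as Zfp473, and the S phase list, with all 14 genes at 10 TPM or more and medians of 81.5 and 84.5 TPM, held no gene past it.

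The MEP label was checked against marker genes, and markers of other cell types differed between the libraries. All 8 MEP markers reached 10 TPM in both libraries, with sums of 2501 TPM in replicate 1, against 2953 TPM in replicate 2. The 8 granulocyte markers summed to 1882 TPM in replicate 1, against 6.39 TPM in replicate 2, where 5 of them were at 0. The 8 early B cell markers summed to 9.65 TPM in replicate 1, against 143 TPM in replicate 2, with Vpreb1 at 0 in replicate 1. Those levels move with the differences between the libraries given above, H2B included, and their part in them was not tested.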

How the data were processed

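Total RNA-seq was measured in 2 MEP libraries of 1 group. The README names mm10 and GENCODE M4 for the authors' gene and transcript tables. Tool versions and strand use are not stated in the sources used here. The deposited expected counts need not be whole numbers. TPM, as deposited, is corrected for effective length over all features, ribosomal RNA included. The deposited FPKM values and the score columns (posterior standard deviations) were not used. The signal columns, which the authors deposited as interval bounds of unstated level, served for the overlap counts and to describe members at 0 counts, and the authors' percent of a gene in each transcript for isoforms.

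Members were matched by gene identifier without version to GENCODE M21 (GRCm38, which is mm10), and 42462 genes matched. Members and gene lists were chosen with earlier results of these data known. Named genes are the 4 highest members of H2A, H2B, H3 and H4, all H1, Hist3 and Hist4 members, those at 0 counts in both libraries, and the 5 that differed most each way at 1 TPM or more on average; others, and list members, were named after their values were seen. Symbols not matched were Ars2, U7, Zcchc6 and Zcchc11, which the lists also hold under newer names.

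A pseudocount of 1 TPM understates the change of low genes. Floors of 3 counts cover counting error only. The libraries were no duplicates (chi-square per degree of freedom 61.0, 11922 genes). No p-values were computed. As alternatives, expected counts were rounded and scaled by TMM (edgeR 4.0.16) or size factors (DESeq2 1.42.0) in R 4.3.3. Windows of 50 and 100 bases were compared over GENCODE M21 coding sequences, not over the M4 models that were counted. Other steps used Python 3.11.15, numpy 2.4.6, pandas 2.3.3 and matplotlib 3.10.9, and the library comparison was tested on simulated data. Those data had independent Poisson counts for each gene, so they cover neither reads shared among members nor spread beyond counting error.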

Additional observations from a re-analysis of the deposited data

Results flagged for a closer look

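Outside the members, a pseudogene of the same family carried signal. Hist3h2bb-ps, annotated as a processed pseudogene on chromosome 11, stood at 14.74 TPM from 107 counts in replicate 1 and at 8.51 TPM from 98.4 counts in replicate 2, which is above the limit that a count of 0 allows. Hist3h2ba of the same cluster was at 11.5 and 9.92 TPM in replicates 1 and 2. Hist3h2a, the Hist3 member that lies nearer to the pseudogene, was at 16.5 and 14.0 TPM. The pseudogenes Hist1h2aj and Hist1h2al had 0 counts in both libraries.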

How the results depend on the processing

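Of 89 combinations of a result and an alternative, 64 moved by no more than the SD between the libraries or, for counts of genes, by at most 1.5 times. For the median difference the limit was set from its own size. The 64 include sums and shares from each library alone, which lie within that SD by construction, so the tally does not measure stability. The sum of members was 15638 TPM rescaled over protein-coding nuclear genes and 1945 as CPM, by construction of those scales, and their median level became 103 TPM rescaled and 52.5 TPM over members at 1 TPM in either library. As shares of counts, H1 became 28.4%, H3 19.01%, H4 21.6%, Hist1 86.4%, Hist2 10.8%, Hist3 1.35% and Hist4 1.46%, and H3 was 19.3% in counts per coding base. Over members with 50% or more of their 100-base windows unique, an alternative chosen after seeing the data like the counts per coding base, H1 became 38.3%, H2A 4.25%, H2B 7.73%, H3 5.27% and H4 44.4%, since few H2B and H3 genes qualify. The median difference over all 64 members, 0.08, became 0.21 at a mean of 10 TPM, 0.27 with rescaled TPM and 0.35 with TMM or DESeq2 factors. The 16 members past 2-fold (27.1% of members, against 7.61% of protein-coding genes) became 7 (against 0.481%) with a pseudocount of 10, 25 (against 23.5%) at 1.5-fold, 5 (against 0.872%) at 4-fold and, chosen after seeing the data, 2 among members with 50% or more unique windows. Each library alone gave 56 to 59 detected members, a sum of 6139 to 7144 TPM and a median of 41.9 to 47.2 TPM; such values of 2 libraries always lie within 1 SD of their mean, so this says nothing about stability. No paired analysis was possible because both libraries belong to 1 group. Genes at few counts, such as Hist1h1t with 9, are limited by depth, and posterior means moved the level of 9 of 64 members by more than 1 SD.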

Other observations

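Most members have 1 annotated transcript, and 4 H2B genes have several. In Hist1h2be the leading transcript of 2433 bases held 94.1% of the gene's TPM in replicate 1 and 0% in replicate 2, where another of 2408 bases held 82.0%, while the gene itself was at 15.3 and 12.7 TPM. In Hist1h2bp a transcript of 621 bases held 75.7% in replicate 1 and 26.6% in replicate 2, and one of 469 bases held 24.4% and 73.4%. Hist1h2br was assigned to a single transcript in both libraries. These percentages are the authors' estimates from short reads, given here as values.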
